A study of Mus musculus with 6 samples.

Results

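The BMP signaling genes and Id targets were followed in hair follicle stem cells (HFSCs), the slow-cycling keratinocytes of the bulge that regrow the hair follicle. They comprise 4 ligands (Bmp2, Bmp4, Bmp6 and Bmp7), 2 receptors (Bmpr1a and Bmpr2), 3 target genes (Id1, Id2 and Id3) and the secreted antagonist Nog. These 10 genes were matched by name in a table of 56941 genes, and all 10 were measured well enough to be tested. Total RNA was sequenced from cells that FACS had sorted from dorsal skin of female mice on CD34 and α6-integrin at postnatal day 68 (PD68), with 3 biological replicates per genotype. Every mouse was of the strain B6;129S4-Dab2tm1Cpr/J, carried floxed Dab2 on both alleles (Dab2fl/fl) and received tamoxifen at 75 mg/kg on 5 days. The group labelled Dab2-cKO in addition carried 1 copy of K14CreER, a tamoxifen-activated Cre driven by the K14 promoter of basal keratinocytes, and the group labelled WT carried no Cre. The study describes both genotypes as in the second telogen, the resting phase of the hair cycle, at this age.

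BMPs are secreted dimers of the TGF-β superfamily. They bind a complex of type I receptors, such as BMPR1A, and type II receptors, such as BMPR2, and the type I receptor then phosphorylates Smad1, Smad5 and Smad9 (Smad8), which enter the nucleus with Smad4. The Id genes are classical direct targets, and their products sequester E proteins and so hold back basic helix-loop-helix transcription factors. Noggin binds BMPs outside the cell and keeps them from their receptors. In the hair follicle, BMP signals from the niche are known to hold bulge stem cells at rest during telogen, and BMPR1A signaling is also known to be needed for the hair matrix to form the shaft and inner root sheath.

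Of the 10 genes, 6 were lower in the libraries labelled Dab2-cKO (Bmp2, Bmp4, Bmp7, Bmpr1a, Bmpr2 and Id3), Nog was higher, and Bmp6, Id1 and Id2 did not pass edgeR's quasi-likelihood test at an adjusted p of 0.05. Changes of this kind were common in these libraries. Over all 32149 genes tested, 28.2% were called, 16.8% as higher and 11.4% as lower. That split was 5389 higher and 3680 lower genes, against 4281 and 5561 with upper-quartile scaling and 2707 and 11082 with library size only. Among the 14798 genes with a mean count of at least 50, 52.5% were called, against 6 of the 9 genes described here that reach that count and 7 of all 10. The median log2 fold change of the 10 genes was -0.34, and that of all genes tested was -0.02. The plot of log2 fold changes gives every gene with its 95% interval.

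**Figure D1:**
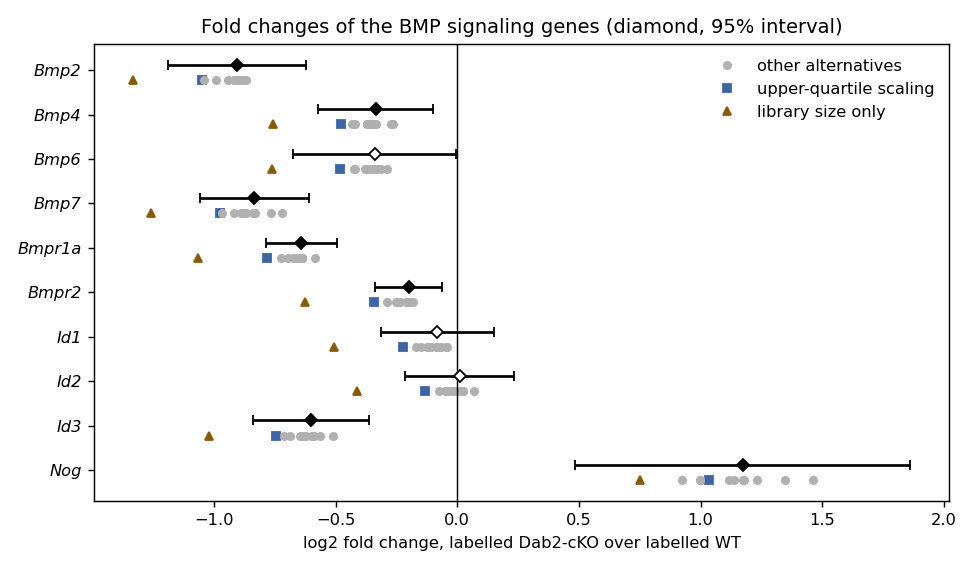
Log2 fold change (Dab2-cKO against WT) for each of the 10 genes (x axis), with bars for the 95% interval of edgeR's quasi-likelihood fit on 3 libraries per group. The intervals of Bmp2, Bmp7, Bmpr1a and Id3 lie farthest below 0, those of Id1 and Id2 span 0, and only that of Nog lies above 0.

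The libraries held between 7040032 and 11696457 counts, so that 3 counts, the limit allowed by a count of 0, correspond to 2.56e-05% to 4.26e-05% of a library. Such limits cover counting error only. The targeted gene, Dab2, an endocytic adaptor, went against the labels: its normalised count (the count relative to the TMM-adjusted library total, brought to the average such total) was 338, 332 and 309 in the libraries labelled WT and 1434, 1300.3 and 1390 in those labelled Dab2-cKO. It was 4.21-fold higher in the libraries labelled Dab2-cKO (log2 fold change 2.08, SE 0.08, edgeR's quasi-likelihood test), and counts per gene cannot tell an intact transcript from one with a deleted exon. Genotypes are therefore given as the libraries are labelled, and every direction rests on those labels. Counts were concentrated in fewer genes in Dab2-cKO, where the top 100 genes held 44.5% to 46.6% against 33.1% to 33.9% in WT, and mitochondrial genes held 19.1% to 20.3% against 12.99% to 14.4%. None of the 12 bulge markers, Cd34 and Itga6 among them, was at or under 3 counts throughout a group. Of these markers, 6 were higher and 5 lower in Dab2-cKO, with a median log2 fold change of 0.22. Their summed normalised count ranged from 20251 to 23193 in WT and from 33405 to 34257 in Dab2-cKO.

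Markers of other skin cells were present in both groups and moved with the genotype. The summed normalised count of 16 genes of the hair matrix, shaft and inner root sheath ranged from 237745 to 285416 in the libraries labelled WT and from 2603 to 2694 in those labelled Dab2-cKO, and all 16 were lower. All 8 proliferation genes and all 6 melanocyte genes were lower too. Summed counts of 12 fibroblast and dermal papilla genes ranged from 103395 to 124791 in WT and from 355757 to 375381 in Dab2-cKO, with 7 higher and 3 lower. Those of 9 endothelial genes ranged from 1836 to 2041 and from 6326 to 6509, with all 9 higher. Differentiated interfollicular epidermis (6 of 7 genes), sebaceous gland (5 of 6), smooth muscle and pericyte (5 of 6), adipocyte (5 of 5) and immune cell markers (6 of 7) were mostly higher, and 2 of 3 inner bulge and companion layer markers were lower. No marker in any of these lists was at or under 3 counts throughout a group. The part of these cells in the values below was not tested, and in bulk RNA fewer cells of a type and less RNA per cell cannot be told apart. Whether both groups were at the same stage of the hair cycle was not tested in these libraries either.

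Of these 4 ligands, the largest log2 fold change in size was that of Bmp2 (ENSMUSG00000027358; chromosome 2, 133394079 to 133404816, plus strand; this and all following gene positions are in GRCm39), which in skin is known from the hair germ and matrix and from dermal adipocytes. Its normalised count was 210.4, 198 and 203 in the libraries labelled WT and 124, 97.8 and 103 in those labelled Dab2-cKO, here and below in the order of replicates 1 to 3. Every Dab2-cKO library lay below every WT library, and the mean fell from 204 ± 6.40 to 108 ± 13.9 (SD, n = 3). This is a 1.87-fold difference (log2 fold change -0.91, SE 0.14, edgeR's adjusted p = 1.71e-07).

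Bmp7 (ENSMUSG00000008999; chromosome 2, 172709805 to 172782410, minus strand), a ligand of epithelial and mesenchymal cells that pairs with BMP2 or BMP4 in heterodimers, was the most abundant of the 4. Its normalised count was 366, 428 and 390.5 in the libraries labelled WT and 233, 175 and 256 in those labelled Dab2-cKO. The groups did not overlap, although the Dab2-cKO libraries spread more widely, with replicate 2 the lowest. The mean was 395 ± 31.0 against 221 ± 41.8 (SD, n = 3), which is 1.78-fold lower (log2 fold change -0.83, SE 0.11, edgeR's adjusted p = 3.12e-09).

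Bmp4 (ENSMUSG00000021835; chromosome 14, 46620250 to 46636745, minus strand), a dermal and dermal papilla ligand, gave 245, 275 and 243 normalised counts in the libraries labelled WT and 222, 205 and 177 in those labelled Dab2-cKO. Its groups did not overlap, but the gap between the lowest WT and the highest Dab2-cKO library was narrower than the range within either group. The mean fell from 254 ± 18.2 to 201 ± 23.0 (SD, n = 3; log2 fold change -0.34, SE 0.12, edgeR's adjusted p = 0.0246). This call was lost with DESeq2 (log2 fold change -0.34, adjusted p = 0.102), without replicate 2 labelled WT (-0.26, edgeR's adjusted p = 0.152) and without replicate 3 labelled Dab2-cKO (-0.27, edgeR's adjusted p = 0.128). Genes annotated on the opposite strand (Gm15217 and Gm15222) cover 31.1% of its exon bases, and the strand setting of the counting is not given in the sources used here, so their reads could be among these counts.

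Bmp6 (ENSMUSG00000039004; chromosome 13, 38529065 to 38684280, plus strand), a ligand made by bulge stem cells and inner bulge cells, was the least abundant of the 4. Its normalised count was 116, 116 and 110.2 in the libraries labelled WT and 97.3, 92.1 and 80.6 in those labelled Dab2-cKO. All Dab2-cKO libraries were below all WT libraries, yet the difference did not pass the test over all genes (log2 fold change -0.34, 95% interval -0.68 to -0.003, edgeR's adjusted p = 0.137). It was called with upper-quartile scaling (-0.48, edgeR's adjusted p = 0.0215), with library size only (-0.76, edgeR's adjusted p = 0.000136) and when only genes with a mean count of at least 50 were tested (-0.43, edgeR's adjusted p = 0.0274). Thus 3 of the 4 ligands were called, all lower, and none of the 4 overlapped between the groups. The same held for 7 of the 10 genes and for 38.3% of all genes tested. That share includes genes with low counts and was not taken for those with a mean count of at least 50.

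**Figure D2:**
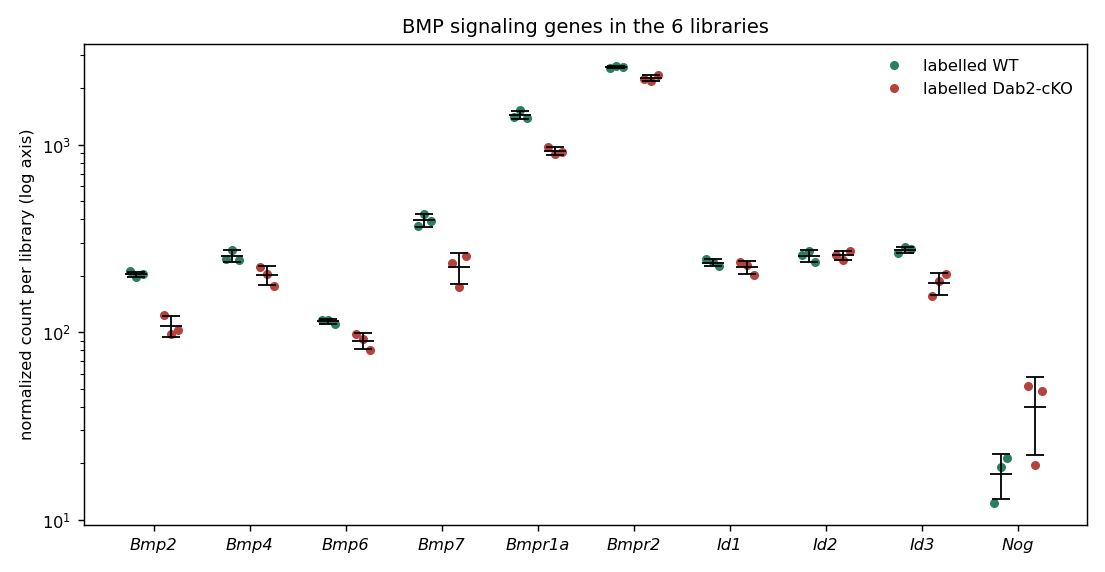
Normalised count of each of the 10 genes (log y axis) in the 6 libraries, with points for single libraries and bars for the mean ± SD of 3 libraries per group. Ligands, receptors and Id3 lie lower in the libraries labelled Dab2-cKO with no overlap, Id1 and Id2 overlap, and replicate 2 of Dab2-cKO separates from the other two for Nog.

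Both receptors were lower, by unequal amounts. Bmpr1a (ENSMUSG00000021796; chromosome 14, 34132687 to 34225379, minus strand), the main type I BMP receptor of skin epithelium, had a normalised count of 1409.6, 1529 and 1383 in the libraries labelled WT and 969.9, 886 and 916 in those labelled Dab2-cKO. The groups lay far apart relative to their spread, with means of 1441 ± 77.6 and 924 ± 42.5 (SD, n = 3). It was 1.56-fold lower (log2 fold change -0.64, SE 0.07, edgeR's adjusted p = 1.17e-11), the smallest adjusted p among the 10 genes.

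Bmpr2 (ENSMUSG00000067336; chromosome 1, 59802544 to 59918173, plus strand), the type II receptor that activates the type I receptor, had a normalised count of 2554, 2625 and 2602 in the libraries labelled WT and 2239, 2182 and 2353 in those labelled Dab2-cKO. The groups did not overlap, but the mean fell only from 2594 ± 36.0 to 2258 ± 87.3 (SD, n = 3), or 1.15-fold (log2 fold change -0.20, SE 0.07, edgeR's adjusted p = 0.0201). Without replicate 3 labelled WT the call was lost (log2 fold change -0.19, edgeR's adjusted p = 0.111). A ratio of 2 genes within a library does not depend on how libraries are scaled. The ratio of Bmpr1a to Bmpr2 counts was 0.552, 0.583 and 0.532 in the libraries labelled WT and 0.433, 0.406 and 0.389 in those labelled Dab2-cKO. It was lower in all 3 Dab2-cKO libraries (0.555 ± 0.0256 against 0.410 ± 0.0221, 2-sided exact permutation, p = 0.1, the lowest value possible with 3 against 3 libraries).

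Nog (ENSMUSG00000048616; chromosome 11, 89191464 to 89193158, minus strand) was the only 1 of the 10 genes called higher, and it had the lowest counts of them. The counts as deposited were 11, 21 and 25 in the libraries labelled WT and 54, 17 and 44 in those labelled Dab2-cKO. Replicate 2 of Dab2-cKO lay inside the WT range, so the groups overlapped. The mean normalised count was 17.5 ± 4.72 against 39.9 ± 17.65 (SD, n = 3), a 2.25-fold difference (log2 fold change 1.17, SE 0.34, edgeR's adjusted p = 0.00516). Its mean WT level per kb of exon, 10.3, lies under 12.3, the 95th percentile of genes that skin cells do not use. This fold is thus set against a group whose mean is not above that background. The call was lost without replicate 1 labelled Dab2-cKO (log2 fold change 0.92, edgeR's adjusted p = 0.0913), without replicate 3 labelled Dab2-cKO (1.00, edgeR's adjusted p = 0.0567) and with library size as the only scaling (0.75, edgeR's adjusted p = 0.0741). Set against Bmp4, a ligand that noggin binds, the count ratio of Nog to Bmp4 was 0.05, 0.0689 and 0.0880 in the libraries labelled WT and 0.232, 0.0955 and 0.275 in those labelled Dab2-cKO.

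The 3 Id genes did not move together. Id1 (ENSMUSG00000042745; chromosome 2, 152566218 to 152579544, plus strand) had a normalised count of 245, 236 and 224 in the libraries labelled WT and 236, 227 and 202 in those labelled Dab2-cKO. These values interleave, with means of 235 ± 10.6 and 221 ± 17.4 (SD, n = 3). The log2 fold change was -0.08, with a 95% interval of -0.31 to 0.15 (edgeR's adjusted p = 0.696).

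Id2 (ENSMUSG00000020644; chromosome 12, 25143798 to 25147282, minus strand) had a normalised count of 258, 271 and 236 in the libraries labelled WT and 257.5, 242 and 270.4 in those labelled Dab2-cKO. The groups overlapped throughout, with means of 255 ± 17.7 and 256.5 ± 14.4 (SD, n = 3). Its log2 fold change was 0.01, with a 95% interval of -0.21 to 0.23 (edgeR's adjusted p = 0.966). Opposite-strand genes (Gm36287 and Gm59395) cover 36.2% of its exon bases, the largest share among the 10 genes. For both Id1 and Id2, the result changed with library size as the only scaling, where the median of all genes was -0.45: they were then called lower at -0.51 and -0.41 (edgeR's adjusted p = 0.000177 and 0.00128), close to that median.

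Id3 (ENSMUSG00000007872; chromosome 4, 135870808 to 135873066, plus strand) was lower. It had a normalised count of 264, 284 and 276 in the libraries labelled WT and 155, 186 and 204 in those labelled Dab2-cKO. All 3 Dab2-cKO libraries lay below all 3 WT libraries, with means of 275 ± 10.3 and 182 ± 24.7 (SD, n = 3). The difference was 1.52-fold (log2 fold change -0.60, SE 0.12, edgeR's adjusted p = 3.01e-05), and the interval of -0.84 to -0.36 lies below those of Id1 and Id2. The count ratio of Id3 to Id2, free of scaling, was 1.02, 1.05 and 1.17 in the libraries labelled WT and 0.604, 0.771 and 0.755 in those labelled Dab2-cKO. The ratio of Id3 to Id1 was lower in all 3 Dab2-cKO libraries as well (1.17 ± 0.0833 against 0.831 ± 0.176). By the exact 2-sided permutation test each of these gave p = 0.1, the smallest possible with 3 against 3, and the ratio of Id1 to Id2 gave p = 0.5. Of the summed Id1 to Id4 level per kb of exon, Id3 made up 32.9% ± 1.95 in WT and 27.0% ± 3.43 in Dab2-cKO with no overlap, and Id2 made up 15.7% ± 0.436 and 19.5% ± 0.512 (SD, n = 3). The size of these shares depends on the exon lengths used, which are given with the levels below.

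Promoter sequences from RefSeq (GRCm38.p6, 250 bases before to 50 bases after the start) were at hand for 6 of the 10 genes, namely Bmp4, Bmp6, Bmpr1a, Bmpr2, Id2 and Id3, and not for Bmp2, Bmp7, Id1 and Nog. They were searched on both strands for GGCGCC, a palindrome bound by the BMP Smads, and for GTCTG, the Smad box, whose reverse complement is CAGAC. No window held both motifs, so no matches overlapped. The first occurs in 11.9% of 32851 mouse promoters of this length and the second in 49.6%. By plan, promoter stretches of the Id genes were to be shown only if these genes moved together. They did not, and those of Id2 and Id3 are shown all the same. Each match is given as 30 bases, 5′ to 3′ on the strand of the gene, with the motif in capitals.
Bmpr1a, chr14:34502727-34502756 (minus strand), 198 bases before the start: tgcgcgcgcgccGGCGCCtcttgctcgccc
Bmpr2, chr1:59764162-59764191 (plus strand), 105 bases before the start: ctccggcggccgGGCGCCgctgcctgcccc
Id2, chr12:25096306-25096335 (minus strand), 231 bases before the start: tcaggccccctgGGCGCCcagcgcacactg
Bmp6, chr13:38345585-38345614 (plus strand), 119 bases before the start: agcgcacgtgtgCAGACtgcgagtgaccgt
Id3, chr4:136143643-136143672 (plus strand), 167 bases before the start: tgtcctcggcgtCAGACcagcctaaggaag
Id3, chr4:136143742-136143771 (plus strand), 68 bases before the start: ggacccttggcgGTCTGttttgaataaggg

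The palindrome was thus present in the windows of Bmpr1a and Bmpr2, which were lower, and of Id2, which was not called. The Smad box was present once in the window of Bmp6 and at both positions shown in that of Id3. Neither motif was found in the window of Bmp4. A match is a description of letters and not of binding. These windows were rich in G and C, from 59.3% for Bmpr2 to 79.3% for Bmpr1a, against a median of 52.7% over all promoters.

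Between genes, levels were compared as normalised counts per kb of exon. Exon length was that of all annotated transcripts merged. For Id2 this covers the whole gene (3485 bases), against 1775 bases for Id1 and 1791 for Id3. The order of the genes and all shares per kb depend on these lengths. In the libraries labelled WT, Bmpr1a stood highest at 186 ± 10, followed by Id3 at 153 ± 5.74, Bmpr2 at 144 ± 1.99 and Id1 at 132 ± 5.95. Then came Bmp7 at 89.4 ± 7.01, Id2 at 73.2 ± 5.08, Bmp4 at 48.5 ± 3.47, Bmp2 at 44.0 ± 1.38, Bmp6 at 29.1 ± 0.871 and Nog at 10.3 ± 2.79 (SD, n = 3). No neighbours in this order overlapped between libraries. In the libraries labelled Dab2-cKO, Bmpr2 (125 ± 4.83), Id1 (125 ± 9.80) and Bmpr1a (119 ± 5.47) stood highest and overlapped, so that Bmpr1a no longer stood apart. Id3 (102 ± 13.8) came next and lay below all libraries of Bmpr1a. Its highest library (114.01) just overlapped the lowest of Id1 (113.8). Id2 (73.6 ± 4.14) followed without overlap. Below them, Bmp7 (50.1 ± 9.45) overlapped Bmp4 (38.4 ± 4.39), and Nog (23.5 ± 10.4), Bmp2 (23.3 ± 3.00) and Bmp6 (22.95 ± 2.18) overlapped in turn.

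The level of genes that skin cells do not use was read from 1561 chemosensory receptor genes. Their median was 4.90 normalised counts per kb in WT and 4.80 in Dab2-cKO, with a 95th percentile of 12.3 and 11.8. By group mean, 9 of the 10 genes lay above that percentile in WT, with Nog under it, and all 10 in Dab2-cKO. Single libraries of Nog lay on both sides of it in each group (7.23, 11.2 and 12.6 in WT, 30.4, 11.5 and 28.7 in Dab2-cKO). The median of these receptor genes equals 47.4% of the WT level of Nog and 20.4% of its Dab2-cKO level. For the other 9 genes it equals between 2.64% and 20.9%. The plot of levels per kb shows the 95th percentiles beside the 10 genes.

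**Figure D3:**
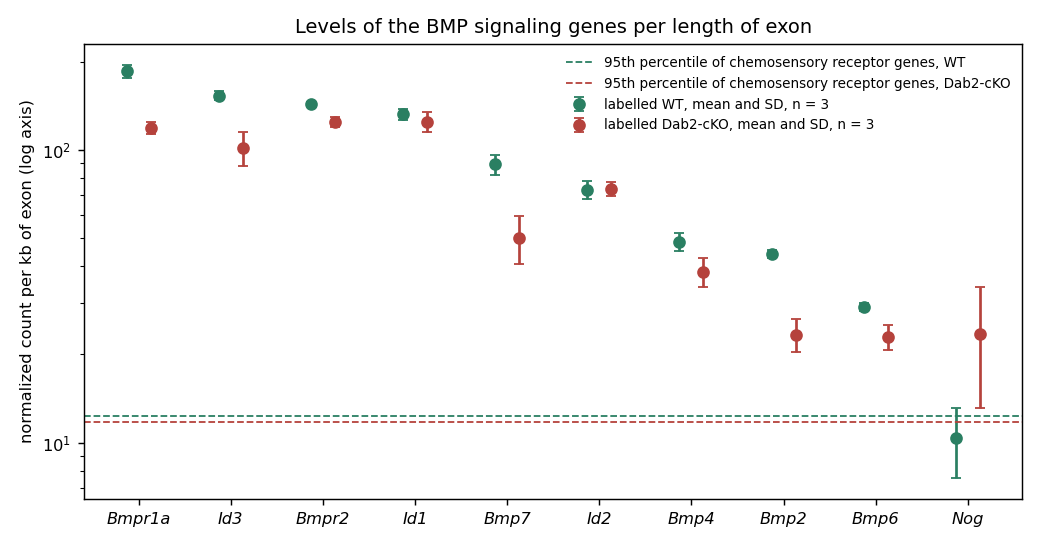
Level of each of the 10 genes in normalised counts per kb of exon (log y axis), with points for the mean and bars for the SD of 3 libraries per group, and dashed lines for the 95th percentile of chemosensory receptor genes in each group. The BMP receptors, Id1 and Id3 lie highest, and Nog in WT lies under the dashed lines at 10.3 per kb.

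Within the ligands, the composition of the summed level per kb of Bmp2, Bmp4, Bmp6 and Bmp7 differed between the groups. Bmp7 made up 42.3% ± 1.62 of it in WT and 37.1% ± 5.60 in Dab2-cKO, with overlap between libraries. The share of Bmp2 was 20.9% ± 1.51 in WT and 17.3% ± 0.891 in Dab2-cKO, and the shares of Bmp4 (23.0% ± 0.655 to 28.6% ± 3.33) and Bmp6 (13.8% ± 0.551 to 17.1% ± 1.88) were higher in all 3 Dab2-cKO libraries (SD, n = 3). In level, the log2 fold changes of Bmp4 and Bmp6 (both -0.34) were smaller than those of Bmp2 and Bmp7.

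The rest of the pathway was read from a list of 58 other BMP pathway genes, of which 57 were tested. Of these, 17 were higher, 14 were lower and 26 did not pass, so 54.4% were called, and 31 of the 48 with a mean count of at least 50 (64.6%), beside the 52.5% of all genes at that count. The median log2 fold change of the 57 genes was 0.07. Calls in both directions were found within most roles, and the plot of pathway genes by role sets them beside the 10 genes.

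**Figure D4:**
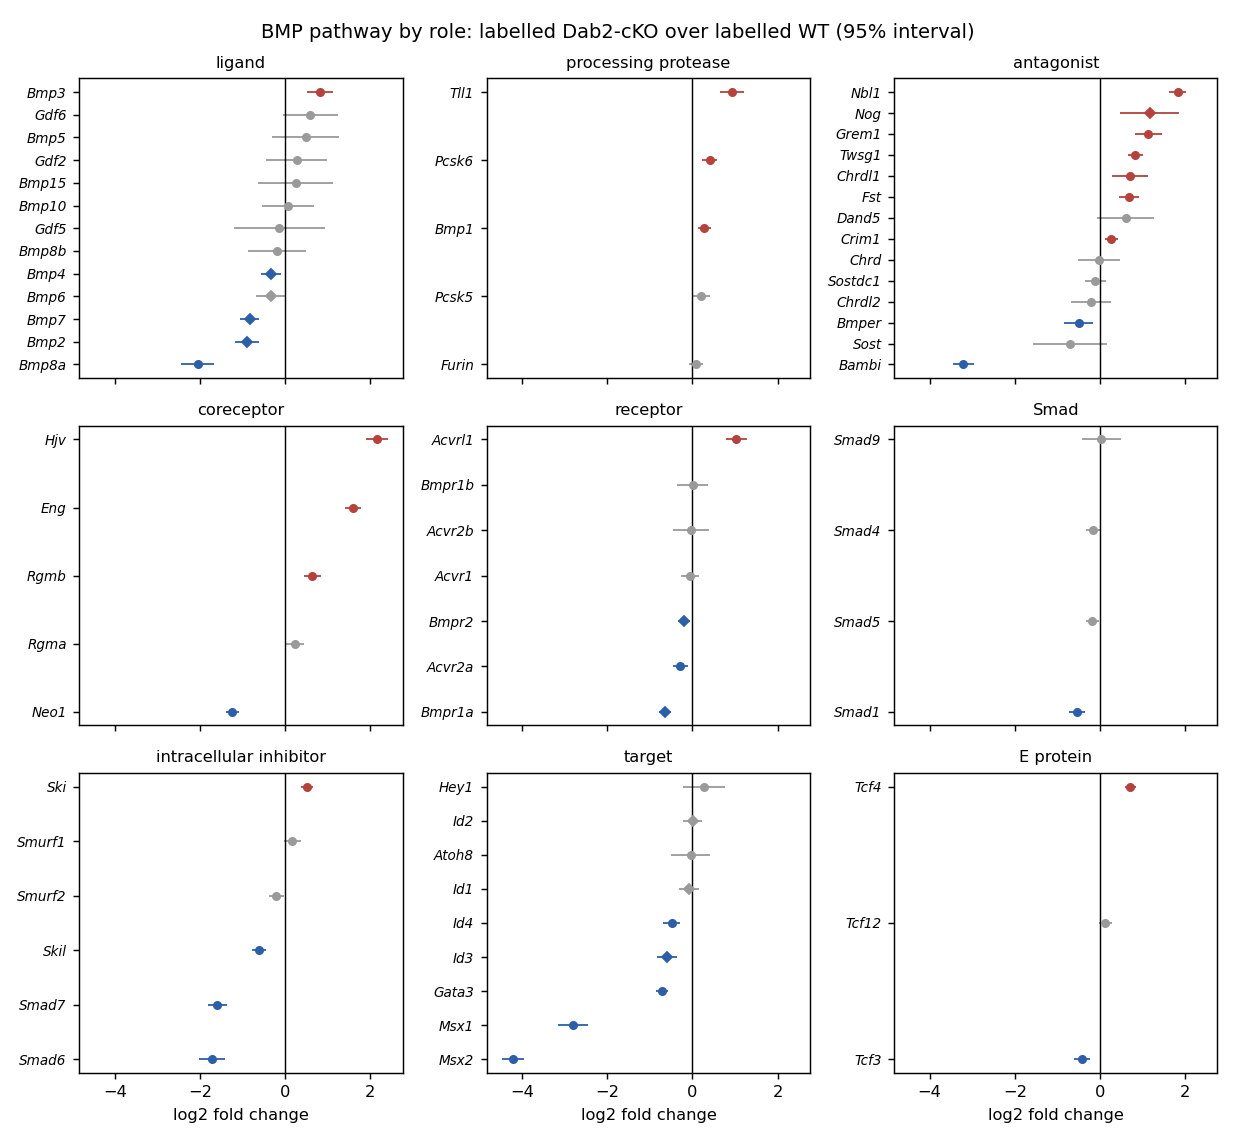
Log2 fold change (Dab2-cKO against WT, x axis) for the 10 genes and other BMP pathway genes, arranged by role, with bars for the 95% interval, diamonds for the 10 genes, and red (higher), blue (lower) or grey (not called) for the call by edgeR's quasi-likelihood test. All called targets lie below 0, antagonists spread from Bambi at -3.21 to Nbl1 at 1.83, and Msx2 has the lowest value of all at -4.22.

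Among 9 other ligands tested, 1 was lower, 1 was higher and 7 did not pass. Bmp8a, a ligand known from germ cells and fat, had a normalised count of 145, 171 and 153 in the libraries labelled WT and 35.3, 25.3 and 51.9 in those labelled Dab2-cKO, which is 4.16-fold lower (log2 fold change -2.05, SE 0.20, edgeR's adjusted p = 2.29e-14). Bmp3, a ligand that opposes the other BMPs, was higher (95.1 ± 13.2 against 168 ± 18.8, SD, n = 3; log2 fold change 0.81, edgeR's adjusted p = 1.15e-05).

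Of 5 other receptors, 1 was higher, 1 was lower and 3 did not pass. The type I receptors Acvr1 (330 ± 23.2 against 315 ± 43.9 normalised counts, SD, n = 3) and Bmpr1b (90.8 ± 18.1 against 91.0 ± 8.47) and the type II receptor Acvr2b (78.7 ± 14.6 against 77.5 ± 26.5) overlapped between the groups, with log2 fold changes of -0.06, 0.01 and -0.03. Acvrl1, the type I receptor of endothelial cells, was higher (138.5 ± 17.98 against 284 ± 19.0, SD, n = 3; log2 fold change 1.03, edgeR's adjusted p = 1.28e-10). Acvr2a, a type II receptor shared with activin, was lower at -0.28 (edgeR's adjusted p = 0.0138). That call was lost in 3 of the alternatives, with DESeq2 (adjusted p = 0.0594), without replicate 2 labelled WT (edgeR's adjusted p = 0.0604) and without replicate 1 labelled Dab2-cKO (edgeR's adjusted p = 0.0787). Of 5 coreceptors and related surface proteins, 3 were higher and Neo1 was lower. The endothelial coreceptor Eng was 3.04-fold higher and Hjv, a coreceptor known from muscle and liver, was 4.48-fold higher (log2 fold changes 1.6 and 2.16, edgeR's adjusted p = 1.97e-23 and 6e-24). Rgmb, of the same family as Hjv, was higher at 0.64 (edgeR's adjusted p = 1.21e-07; with library size as the only scaling 0.22, adjusted p = 0.0563), and Neo1, which binds this family, was 2.37-fold lower (-1.24, edgeR's adjusted p = 1.6e-23). Acvrl1 and Eng are themselves expressed by endothelial cells, whose 9 marker genes were all higher, and the part of those cells in these values was not tested.

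Of the 4 Smads that carry the signal, Smad1 was lower. Its normalised count was 463, 598 and 533 in the libraries labelled WT and 374, 367 and 355 in those labelled Dab2-cKO (log2 fold change -0.54, SE 0.09, edgeR's adjusted p = 1.83e-06). Smad4 (-0.17), Smad5 (-0.18) and Smad9 (0.03) did not pass (edgeR's adjusted p = 0.16, 0.0968 and 0.948), although Smad5 was called lower in 6 of the alternatives and Smad4 in 4. The inhibitory Smads, which block the receptors and are themselves known to be induced by BMP and TGF-β signals, were lower by more. Smad6 gave 193, 240.1 and 238 normalised counts in the libraries labelled WT and 71.5, 63.3 and 70.6 in those labelled Dab2-cKO, or 3.27-fold less (log2 fold change -1.71, SE 0.15, edgeR's adjusted p = 1.54e-15). Smad7 gave 454, 585 and 620.35 against 159, 196 and 198, or 3.02-fold less (log2 fold change -1.6, SE 0.11, edgeR's adjusted p = 9.75e-21). Their groups lay far apart. The nuclear Smad corepressors went in opposite directions, with Skil lower at -0.62 and Ski higher at 0.51 (edgeR's adjusted p = 2.16e-09 and 1.02e-08). The call of Ski was lost with library size as the only scaling (0.089, edgeR's adjusted p = 0.222).

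Of 14 antagonists and modulators other than Nog, 7 were higher, 2 were lower and 5 did not pass. Nbl1, a secreted antagonist of the DAN family, rose from 178, 195 and 214 normalised counts in the libraries labelled WT to 699, 702 and 689 in those labelled Dab2-cKO, a 3.55-fold difference (log2 fold change 1.83, SE 0.10, edgeR's adjusted p = 9.74e-27). Grem1 (1.14), Twsg1 (0.83), Chrdl1 (0.70), Fst (0.68) and Crim1 (0.27) were higher by smaller amounts on the log2 scale. Of these, Chrdl1, Crim1 and Fst did not pass in every alternative, and Crim1 turned below 0 with library size as the only scaling (-0.15). Grem1, Twsg1 and Fst are also made by fibroblasts, whose 12 marker genes were mostly higher, and their part in these values was not tested. Bmper, an extracellular modulator, was lower at -0.50 (edgeR's adjusted p = 0.018), a call lost in 5 of the alternatives. Bambi, a membrane pseudoreceptor that is itself induced by BMP signals, went the other way from most antagonists. Its normalised count was 499.9, 573 and 569.9 in the libraries labelled WT and 55.3, 58.7 and 64.0 in those labelled Dab2-cKO, which is 9.25-fold lower (log2 fold change -3.21, SE 0.13, edgeR's adjusted p = 1.1e-33). The proteases that mature BMPs or cleave chordin were higher in 3 of 5 cases, namely Tll1 (0.92), Pcsk6 (0.40) and Bmp1 (0.28). Pcsk6 and Bmp1 turned below 0 with library size as the only scaling (-0.021 and -0.15). The call of Bmp1 was also lost with upper-quartile scaling and without replicate 2 labelled Dab2-cKO.

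Of 6 further target genes, 4 were lower and none was higher. Id4, the fourth member of the Id family, was lower like Id3, with 537, 514 and 434 normalised counts in the libraries labelled WT and 382, 295 and 379.7 in those labelled Dab2-cKO (log2 fold change -0.48, SE 0.10, edgeR's adjusted p = 4.46e-05). Msx2, a homeobox gene of the hair matrix, fell from 720.4, 759.98 and 793 normalised counts to 33.4, 58.7 and 30.9, which is 18.7-fold (log2 fold change -4.22, SE 0.13, edgeR's adjusted p = 3.31e-39). Msx1 was 7.01-fold lower and Gata3, a regulator of the inner root sheath, 1.64-fold lower (log2 fold changes -2.81 and -0.72, edgeR's adjusted p = 3.95e-22 and 2.26e-13). Msx2 is also among the 16 markers of hair matrix, shaft and inner root sheath, all lower and with a median log2 fold change of -6.56, and their part in the levels of Msx2, Msx1, Gata3, Bambi and Bmp2 was not tested. Among the E proteins that Id proteins bind, Tcf3 was lower at -0.42 and Tcf4 higher at 0.72 (edgeR's adjusted p = 0.0001 and 3.91e-14), and Tcf12 at 0.13 did not pass.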

How the data were processed

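Total RNA of FACS sorted HFSCs (3 libraries labelled WT, 3 labelled Dab2-cKO) was made into libraries by SMARTer Stranded chemistry for pico input and read from both ends. Per the labels and methods, the authors used FastQC 0.11.9, fastp 0.23.4, HISAT2 2.2.1 (GRCm39), SAMtools 1.6 and featureCounts 2.0.6, and deposited the counts per gene without normalization. The annotation release, the strand setting and the handling of multi-mapping reads or molecular identifiers are not given in the sources used here. The deposited table of the authors' DESeq2 1.42.0 comparison, with fold changes, p-values and scaled counts, was not used. Columns named FL-FL were taken as Dab2-cKO from the series' own naming, although both genotypes carry floxed alleles.

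In R 4.3.3, counts were filtered by edgeR 4.0.16 (filterByExpr), scaled by TMM and compared between genotypes by quasi-likelihood (robust dispersion) with Benjamini-Hochberg adjustment over all 32149 genes tested, with calls at an adjusted p under 0.05. SE and 95% intervals came from the same fit. The scripts were tested on simulated data. Totals were 7040032 to 11696457 counts. The p-values rest on the spread between libraries within both groups, with dispersions moderated over all genes. In the table, 6770 rows have no symbol and were kept by their identifier. Positions, exon lengths and overlaps came from GENCODE annotation of GRCm39, and promoters from RefSeq (GRCm38.p6). The 10 genes, the pathway list and the marker lists were chosen with earlier results of these data known. Named pathway genes were those called with a mean normalised count of at least 50 and all receptors and Smads. Tcf12 was named after its value was seen, and 1 called pathway gene is counted but not reported here by name. The main fit did not pair libraries by replicate number. The alternatives were DESeq2, other scalings and filters, the replicate block and each library left out in turn.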

Additional observations from a re-analysis of the deposited data

How the results depend on the processing

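Over 13 alternatives, Bmp2 (log2 fold change -1.33 to -0.87), Bmp7 (-1.26 to -0.72), Bmpr1a (-1.06 to -0.59) and Id3 (-1.02 to -0.51) were called lower in each. Scaling mattered most: with library size only, 13789 genes were called, 2707 higher and 11082 lower, the median of all genes was -0.45, and none of the 10 genes was higher. Of the other pathway genes, 9 were then higher and 24 lower, and Id2 (-0.41), Crim1 (-0.15), Pcsk6 (-0.021) and Bmp1 (-0.15) changed sign. With upper-quartile scaling the split was 4281 higher and 5561 lower, against 5389 and 3680, and the median was -0.17. With a mean count of at least 50, 0 of the 10 genes were higher, since Nog was not tested. Leaving out each library gave 0 to 1 of the 10 genes higher, 0 without Dab2-cKO replicate 1 (Nog 0.92) or replicate 3 (1.00), and 7996 to 8546 genes called. With the replicate block, 8964 genes (5348 higher, 3616 lower) and 7 of the 10 genes were called, and no count moved by over 1.5 times. Deviations of same-numbered libraries correlated at 0.02, 0.01 and 0.01, and each correlated best with its own number. Values this small over all genes cannot decide whether the numbers pair the libraries. Of the single-gene results under these alternatives, 459 kept both call and sign, 31 lost the call with the same sign, and 3 lost it with the other sign (Crim1, Pcsk6 and Bmp1). Genes not called gained a call in 15 cases with the same sign and in 1 with the other (Id2), and otherwise were not called in 101 cases, with the other sign in 23 of them. The causes were not tested. Depth limits Nog, with 11 to 54 counts per library.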
